A study of Mus musculus with 12 samples.

Results

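The genes of the cytosolic ribosomal proteins were examined in the pressure-overloaded mouse heart, with and without hispidulin. They were taken as the rows whose NCBI Gene identifier carries a protein-coding mouse symbol beginning with Rpl or Rps and a number, or Rplp0, Rplp1, Rplp2 or Rpsa, without the Rps6k kinases. This gave 90 of the 18079 genes measured. They comprised 31 proteins of the 40S small subunit, 43 proteins of the 60S large subunit and 3 stalk proteins, which together are called the 77 core genes here. The other members were 12 paralogs or retrocopies and Rps19bp1, which binds Rps19 and is not itself a ribosomal protein.

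RNA was sequenced from left ventricular muscle of 12 mice, C57BL/6 in the labels and male C57BL/6J in the study's methods. Mice were 8 weeks old at surgery and 12 weeks old at harvest according to the labels, and AB stands for banding of the descending aorta, which raises the load on the left ventricle. Sham surgery with DMSO (DMSO+Sham) or hispidulin (Hispidulin+Sham) and banding with either of them (DMSO+AB, Hispidulin+AB) made up the 4 groups of 3 mice, each mouse giving 1 library. Hispidulin, a plant flavonoid, was injected intraperitoneally at 20 mg/kg/day from 1 day ahead of surgery until harvest 4 weeks after it. The DMSO groups received the solvent, so all 4 groups were injected. The labels name no genetic modification, and values come from whole tissue, in which fewer cells of a type and less RNA per cell cannot be told apart.

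The ribosome translates mRNA into protein, and its small subunit decodes the mRNA while its large subunit forms the peptide bond. Nearly all of its proteins are present in a single copy in each ribosome, and most of their mRNAs begin with a C followed by a run of pyrimidines, the 5′ TOP element, through which mTOR signalling controls their translation. Hypertrophic growth of the heart requires more protein synthesis. A few ribosomal proteins have paralogs with restricted expression, of which Rpl3l, made in heart and skeletal muscle in place of the ubiquitous Rpl3, is the best known example.

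The start of the mRNA is shown first because it is a feature the choice of genes did not use. RefSeq start sites on GRCm38.p6 were found for 69 of the 90 genes. Among 67 start sites of 57 core genes, 13 (19.4%) began with a C followed by at least 4 pyrimidines (C or T, on the gene's strand), against 823 of 32851 start sites of all genes (2.51%). A tract of at least 8 pyrimidines, counted from a C that lay within 10 bases of the start on either side, was found at 23 of the 67 core start sites (34.3%) and at 8.11% of all start sites. Annotated starts can lie some bases away from the true start, and a match describes letters only. The sequences below run from 10 bases before the annotated start to 20 bases into the transcript, 5′ to 3′, with the pyrimidine tract that begins at the start in capitals. The first 4 are core genes picked because they show the tract, which most core start sites lack.
Rps6, chr4:86857348-86857377, minus strand: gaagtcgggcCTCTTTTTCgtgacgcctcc
Rps18, chr17:33955646-33955675, minus strand: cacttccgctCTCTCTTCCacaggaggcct
Rps27, chr3:90213629-90213658, minus strand: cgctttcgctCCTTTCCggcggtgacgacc
Rpl28, chr7:4792955-4792984, plus strand: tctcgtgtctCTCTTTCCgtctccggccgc
The next 3 are the paralogs Rpl3l, Rps27l and Rpl22l1, described later, and none has such a tract at the start shown.
Rpl3l, chr17:24727816-24727845, plus strand: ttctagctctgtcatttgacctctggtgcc
Rps27l, chr9:66946076-66946105, plus strand: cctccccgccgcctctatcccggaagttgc
Rpl22l1, chr3:28805498-28805527, plus strand: gcgcaagcccgttctcttcccacggctgca
For Rps27l and Rpl3l a second annotated start also lacked the tract. Rpl22l1 has a tract of 8 pyrimidines counted from a C 3 bases after the start, and over the paralogs and retrocopies 3 of 13 start sites (23.1%) had a tract of at least 8 counted in this way.

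Values are FPKM, read counts scaled by transcript length and library size, as deposited by the authors. FPKM of a mouse summed to 535235 to 567027, the sequencing depth is unknown, and Spearman correlations between mice of a group were 0.944 to 0.989. limma was fitted to log2(FPKM + 1) of the 12 mice together, after genes that did not reach 1 FPKM in 3 or more mice had been removed. This left 11664 genes, 86 of them members, and Benjamini-Hochberg adjustment ran over the 11664. The 8 ventricular cardiomyocyte markers summed to 49812 to 69977 FPKM in each mouse, so the markers of the labelled tissue were present. The lowest sum was that of DMSO+Sham 3, against 60142 FPKM or more in the other 11 mice, and its Actc1, cardiac actin, was at 2741 FPKM against 7909 FPKM or more. Over the 11578 tested genes that are no members, the log2 deviations from the 12-mouse mean had an SD of 0.417 in DMSO+Sham 3 and 0.351 in DMSO+AB 3, against 0.161 to 0.321 in the other 10 mice, so both libraries stood apart. Atrial markers (Myl7, Myl4 and Sln, all 3 tested) stood apart in Hispidulin+Sham 3, DMSO+AB 2 and Hispidulin+AB 3, with sums of 773.9, 172 and 91.0 FPKM against 2.53 to 39.99 in the other 9 mice. The members' medians and the values of Rpl3l and Rpl3 are therefore also given without the 3 libraries with atrial markers for each comparison of groups. Between DMSO+AB and DMSO+Sham they are also given without DMSO+Sham 3 and without DMSO+AB 3.

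The core genes were among the most abundant transcripts of the ventricle. Mean FPKM over the 12 mice was 977 for Rps2, 950 for the stalk protein Rplp1 and 794 for Rpl23a, and the median over the 31 small subunit genes was 438 against 396 over the 43 large subunit genes. At the low end of the core stood Rps6, the protein phosphorylated by S6 kinase, with 11.2 FPKM, and Rps15a with 31.7 FPKM. RefSeq names 4 pseudogenes after Rps6 and 8 after Rps15a, and 63 of the 90 members have at least 1. The 3 highest members, Rps2, Rplp1 and Rpl23a, have 12, 1 and 13. Of 310 RefSeq pseudogene or noncoding entries that match the rule's symbols, 1 is among the genes measured. Reads shared with such copies could be divided by the counting, which was not resolved here, and their part in the low values was not tested. Of the paralogs, Rpl3l had the highest mean, 211 FPKM, above the 182 FPKM of Rpl3 itself. The 4 members that were not tested were Rpl39l, Rpl32l, Rps23rg1 and Rpl10l, paralogs or retrocopies with mean FPKM of 0.23, 0.172, 0.0717 and 0.0175.

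As a group, the ribosomal protein genes differed little between conditions. Their summed FPKM was 30992 ± 781 (SD, n = 3) in DMSO+Sham and 32030 ± 2873 in Hispidulin+Sham, and after banding 32999 ± 3188 with DMSO and 33029 ± 2199 with hispidulin. As a share of all FPKM this was, in the same order, 5.68% ± 0.155, 5.81% ± 0.424, 5.91% ± 0.455 and 5.96% ± 0.226. The groups overlapped: the lowest share after AB, 5.55% in DMSO+AB 1, was no higher than the 5.55% of DMSO+Sham 1, and a Sham mouse, Hispidulin+Sham 1, reached 6.28%. The ratio of summed FPKM of large to small subunit genes lay between 1.39 and 1.48 in the 12 mice. It was 1.391, 1.419 and 1.404 in DMSO+Sham and 1.437, 1.439 and 1.485 in DMSO+AB, so that all 3 DMSO+AB mice were above the 3 DMSO+Sham mice. Hispidulin+Sham 2, a Sham mouse, had 1.453, and the Hispidulin+Sham and Hispidulin+AB means were both 1.42, with overlap.

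After AB in mice given DMSO, the large subunit gene Rpl3 rose and its muscle paralog Rpl3l fell, and no other member passed the test. Rpl3l and Rpl3 were thus 2 of the 86 members, 1 higher and 1 lower, where 5.21% of all genes tested passed, 2.5% as higher and 2.71% as lower. The median log2 fold change over the members was 0.09, with 65 of them on the higher side, against a median of -0.03 and 44.2% on the higher side over all genes. The members' median was 0.04 without DMSO+AB 2, also 0.04 without all 3 libraries with atrial markers, 0.17 without DMSO+AB 1, 0.11 without DMSO+Sham 3 and 0.10 without DMSO+AB 3. At an unadjusted p under 0.05 there were 6 members against 20.4% of all genes, and DMSO+AB and DMSO+Sham mice did not overlap for 7 members against 17.9% of all genes. Members therefore passed no more often than genes at large in this comparison. At an adjusted p of at most 0.001 with a log2 change of at least 1, the criteria of the study, limma passed 0 members and 0 of the 11664 genes tested, so these criteria do not set the members apart.

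Rpl3l, whose product replaces Rpl3 near the peptidyl transferase centre in muscle ribosomes, was measured at 297.84, 218.15 and 240.93 FPKM in DMSO+Sham. It was at 272.62, 233.31 and 230.26 FPKM in Hispidulin+Sham. The DMSO+AB mice had 181.49, 119.87 and 151.48 FPKM. The 3 DMSO+AB mice were all below the 3 DMSO+Sham mice. In Hispidulin+AB, Rpl3l was at 201.81, 198.18 and 184.43 FPKM, above every DMSO+AB mouse and below every Sham mouse of either treatment. Between DMSO+AB and DMSO+Sham it fell by 0.75 on the log2 scale (SE 0.15, limma adjusted p = 0.0199).

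Rpl3, the ubiquitous form, was measured at 126.26, 159.02 and 131.08 FPKM in DMSO+Sham. It was at 178.85, 154.38 and 186.79 FPKM in Hispidulin+Sham. The DMSO+AB mice had 174.45, 264.61 and 207.35 FPKM. Every DMSO+AB mouse was above every DMSO+Sham mouse, and DMSO+AB 2 was the highest of the 12. The Hispidulin+AB mice lay close together at 202.7, 194.31 and 199.39 FPKM, all above the Hispidulin+Sham mice. Rpl3 rose by 0.62 on the log2 scale between DMSO+AB and DMSO+Sham (SE 0.14, limma adjusted p = 0.0325).

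**Figure D1:**
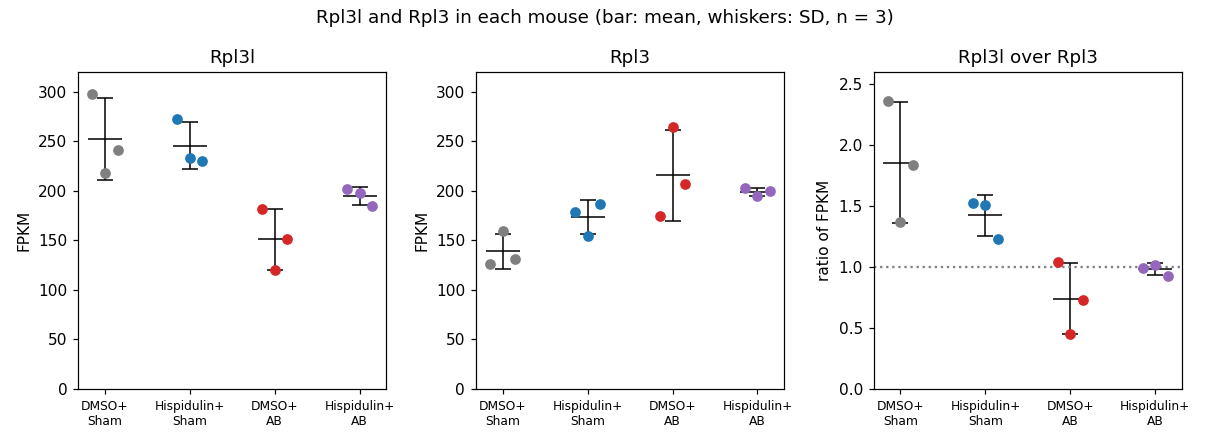
FPKM of Rpl3l (left) and Rpl3 (middle) and the ratio of Rpl3l to Rpl3 FPKM (right, dotted line at 1) in each of the 12 mice by group. Points are mice, horizontal bars the group mean and whiskers the SD (n = 3). Every AB mouse had a ratio of at most 1.04 and every Sham mouse a ratio of at least 1.23.

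Both calls depended on single mice. Rpl3l no longer passed without DMSO+Sham 1 (log2 fold change -0.62, limma adjusted p = 0.0847), without DMSO+AB 2 (-0.59, adjusted p = 0.0798) or without DMSO+AB 3 (-0.76, adjusted p = 0.0594). Without DMSO+Sham 3, Rpl3l was at -0.77 and passed (adjusted p = 0.0330). Rpl3 no longer passed without DMSO+Sham 1 (limma adjusted p = 0.125), DMSO+Sham 3 (0.0676), DMSO+AB 2 (0.106) or DMSO+AB 3 (0.0796), and its adjusted p was 0.0501 to 0.0533 without Hispidulin+Sham 1 or any of the Hispidulin+AB mice. The log2 fold change of Rpl3 was 0.58 without DMSO+Sham 3 and 0.63 without DMSO+AB 3. Over all 25 alternative fits Rpl3l passed in 19 (limma adjusted p 0.00314 to 0.171) and Rpl3 in 13 (0.00593 to 0.208). Without the 3 libraries with atrial markers, of which DMSO+AB 2 is in this comparison, the log2 fold changes were -0.59 for Rpl3l (limma adjusted p = 0.171) and 0.46 for Rpl3 (adjusted p = 0.205). The direction was the same for both genes in each of these fits.

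The ratio of Rpl3l to Rpl3 set the 2 forms against each other within a mouse. In DMSO+Sham it was 2.36, 1.37 and 1.84, with a mean of 1.86 ± 0.494 (SD, n = 3). In DMSO+AB it was 1.04, 0.453 and 0.731, with a mean of 0.741 ± 0.294. Rpl3l was thus the more abundant form in every Sham mouse and the less abundant form in 2 of the 3 DMSO+AB mice. In Hispidulin+Sham the ratio was 1.52, 1.51 and 1.23 (mean 1.42 ± 0.165), and in Hispidulin+AB it was 0.996, 1.02 and 0.925 (mean 0.980 ± 0.0493). The 6 AB mice did not overlap with the 6 Sham mice.

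On the log2 scale the ratio was lower by 1.37 in DMSO+AB than in DMSO+Sham and by 0.53 in Hispidulin+AB than in Hispidulin+Sham, with exact permutation p = 0.1 each (two-sided), the smallest that 3 mice against 3 allow. Averaged over both treatments the log2 difference was -0.95, with an exact two-sided permutation p = 0.005, the smallest possible when labels are permuted within treatments. When the 3 libraries with atrial markers were left out, these differences were -1.06 and -0.59, and -0.82 over both treatments (exact two-sided permutation p = 0.1, 0.333 and 0.0167, with fewer mice to permute). The ratio test was made on genes found to move in these same mice and adds no independent evidence. The summed FPKM of the pair changed less, from 391 ± 28.7 in DMSO+Sham to 366 ± 15.7 in DMSO+AB (SD, n = 3), and was 419 ± 31.9 in Hispidulin+Sham and 394 ± 10.4 in Hispidulin+AB.

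Numbers in the column labels were read here as animal numbers and grouped into series by their first digits. The labels do not say what these numbers mean. The direction of the shift of the pair was the same within both series that hold AB mice. Between DMSO+AB and DMSO+Sham the log2 ratio differed by -0.91 in series 52, with 1 mouse on each side, and by -1.42 in series 67, with 2 DMSO+AB mice against 1 DMSO+Sham mouse. Rpl3l differed by -0.52 and -0.70 and Rpl3 by 0.38 and 0.71 on the log2 scale in these series. Between Hispidulin+AB and Hispidulin+Sham the log2 ratio differed by -0.71 in series 52 and by -0.29 in series 67. There Rpl3l differed by -0.45 and -0.20 and Rpl3 by 0.26 and 0.09. These values within a series rest on single mice and are given without a test. DMSO+Sham 1 was the only mouse of series 1, so a fit with the series as a covariate in effect drops it, and there the adjusted p from limma was 0.0862 for Rpl3l and 0.128 for Rpl3.

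Fibroblast markers moved with the same groups. All 7 markers tested were higher in DMSO+AB than in DMSO+Sham and 3 passed, among them Postn, a matrix protein of activated fibroblasts, with a log2 fold change of 3.08 (limma adjusted p = 0.0197). Their sum was 342 to 442 FPKM in DMSO+Sham and 346 to 477 in Hispidulin+Sham, against 401 to 978 in DMSO+AB and 401 to 649 with hispidulin after AB, and no marker was at 0 in any mouse. The highest sum, 978 FPKM, was in DMSO+AB 2, the mouse with the highest Rpl3 and the lowest Rpl3l. In DMSO+AB 1 the sum was 401 FPKM, of which 262.05 FPKM was the matrix proteoglycan Dcn, and Postn was at 23.44 FPKM, above its highest Sham value of 12.83 FPKM. Rpl3l in that mouse, at 181.49 FPKM, was below every Sham mouse, whereas Rpl3, at 174.45 FPKM, was above the DMSO+Sham mice and within the range of Hispidulin+Sham. Between Hispidulin+AB and Hispidulin+Sham all 7 markers were also higher (median 0.61), and between Hispidulin+AB and DMSO+AB 6 of 7 were lower (median -0.54), without any that passed. All 4 smooth muscle and pericyte markers exceeded DMSO+AB in the Hispidulin+AB group (median log2 difference 0.42), 2 of them (Myh11 and Rgs5) at an unadjusted p under 0.05 and none after adjustment, with sums of 233, 174 and 161 FPKM in DMSO+AB and 268, 256 and 215 FPKM in Hispidulin+AB and none at 0. Averaged over both treatments, AB against Sham, all 7 fibroblast markers were higher (median 1.10) and 4 passed, against 7.39% of all genes. Of the 4 smooth muscle and pericyte markers 1 was higher and passed, and 3 were lower. The part of these cell types in the differences of Rpl3 and Rpl3l was not tested.

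Rps27l, a paralog of Rps27 known as a p53 target, was the third member to approach the threshold. It was measured at 84.55, 95.69 and 92.5 FPKM in DMSO+Sham and at 105.53, 128.81 and 115.33 FPKM in DMSO+AB, without overlap. The log2 difference was 0.35 (SE 0.10, limma adjusted p = 0.0665). Hispidulin+Sham mice had 93.16, 88.08 and 94.38 FPKM and Hispidulin+AB mice 105.08, 111.12 and 93.11 FPKM, so that Hispidulin+AB 3 lay among the Sham mice. Averaged over treatments, Rps27l rose by 0.26 after AB (SE 0.07, limma adjusted p = 0.0499), with an adjusted p of 0.0594 when the replicate number was a block. It passed in 8 of 24 alternative fits (limma adjusted p 0.00536 to 0.174) and no longer did when any of the mice other than DMSO+Sham 2 and DMSO+AB 1 was left out.

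Other members of small p between DMSO+AB and DMSO+Sham did not pass. Rpl13a, also a component of a translational silencing complex, had 405.65, 438.09 and 421.43 FPKM in DMSO+Sham and 445.44, 584.73 and 582.3 FPKM in DMSO+AB. These groups did not overlap, and the log2 difference was 0.34 (SE 0.12, limma adjusted p = 0.134). The large subunit genes Rpl12 and Rpl39 both differed by 0.27, and Rpl39 by 0.13 without DMSO+AB 2. The groups also did not overlap for Rpl10a, Rpl29 and Rps28, named here after their values were seen, with log2 differences of 0.18, 0.15 and 0.21 (limma adjusted p = 0.261, 0.356 and 0.417). Without DMSO+AB 2 the difference of Rps28 was 0.12.

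Among the 31 small subunit genes none passed between DMSO+AB and DMSO+Sham, none had an unadjusted p under 0.05, and the median log2 difference was 0.11 with 22 on the higher side. Among the 43 large subunit genes the median was 0.10 with 34 on the higher side, and Rpl3 was the only gene that passed. The stalk proteins Rplp0, Rplp1 and Rplp2, which recruit elongation factors, differed by 0.07, 0.22 and 0.09 without passing. Over the 77 core genes the 95% interval of a single difference had a median half-width of 0.25 on the log2 scale, about 18.7%, and no interval reached a 2-fold change in either direction.

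Genes often used as references for qPCR are among these members. Between DMSO+AB and DMSO+Sham, Rplp0 differed by 0.07 (95% interval -0.14 to 0.28), Rps18 by 0.05 (-0.19 to 0.30) and Rpl32 by 0.04 (-0.18 to 0.26), whereas Rpl13a had an interval of 0.08 to 0.60. Rpsa, the laminin receptor, differed by 0.11 and Rps6 by 0.19. These intervals are from limma and are not adjusted for the number of genes. Between Hispidulin+AB and DMSO+AB the same intervals were -0.31 to 0.11 for Rplp0, -0.21 to 0.29 for Rps18, -0.19 to 0.25 for Rpl32 and -0.42 to 0.11 for Rpl13a, all including 0.

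**Figure D2:**
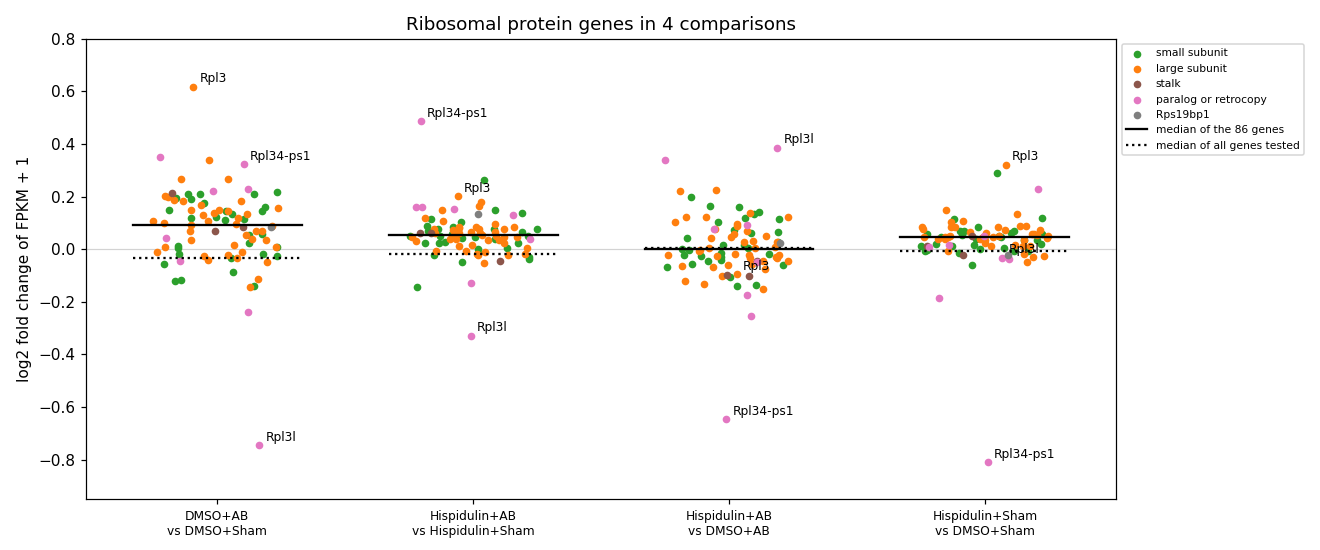
Log2 fold change of FPKM + 1 for the 86 tested members (points, coloured by class) in 4 comparisons, with the median over the members (solid line) and over all 11664 genes tested (dotted line). Most points lie within 0.3 of 0. Rpl3 and Rpl3l stand farthest apart between DMSO+AB and DMSO+Sham, at 0.62 and -0.75, and Rpl34-ps1, a retrocopy at about 3 FPKM, is marked where it lies far out.

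Hispidulin in banded mice was compared as Hispidulin+AB against DMSO+AB, the comparison that asks what the compound does under load. Of the members 0 passed, as did 0 of all genes tested (0%), with limma adjusted p of 0.996 or more. The median log2 difference over the members was -0.00055, with 43 higher and 43 lower, and 0.0047 over all genes, of which 51.4% were on the higher side. The members' median was -0.07 without DMSO+AB 1 and 0.07 without DMSO+AB 2. These were the limits over all fits with 1 mouse left out, that without DMSO+AB 3 included. It was 0.12 without the 3 libraries with atrial markers. Only 1 member had an unadjusted p under 0.05, against 3.1% of all genes, and the same member was the only one without overlap, against 7.88% of all genes. This was Rpl3l, higher in Hispidulin+AB by 0.39 on the log2 scale (SE 0.15, 95% interval 0.05 to 0.72, limma adjusted p = 0.996), and the exact two-sided permutation p was 0.1, the smallest possible.

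For Rpl3 the Hispidulin+AB mice lay within the range of the DMSO+AB mice and the difference was -0.09 (95% interval -0.41 to 0.22). The Rpl3l to Rpl3 ratio was higher by 0.48 on the log2 scale with hispidulin, at an exact two-sided permutation p = 0.4. Without DMSO+AB 2 the difference was 0.17 for the ratio, 0.23 for Rpl3l and 0.06 for Rpl3, and without DMSO+AB 1 it was 0.77 for the ratio and -0.24 for Rpl3. Over all fits with 1 mouse left out, that without DMSO+AB 3 included, Rpl3l lay between 0.23 and 0.53 and Rpl3 between -0.24 and 0.06. Without the 3 libraries with atrial markers the difference of Rpl3 was also 0.06, that of Rpl3l 0.27 and that of the log2 ratio 0.21. The members next in order of p were Rps27l at -0.17, Rpl34-ps1 at -0.65, Rpl22l1 at 0.34, Rpl5 at 0.22 and Rpl7 at 0.23, none of which passed. These values moved with single DMSO+AB mice. Without DMSO+AB 3, Rpl34-ps1 was at -0.25, Rpl22l1 at 0.15, Rpl5 at 0.02 and Rpl7 at -0.01. Without DMSO+AB 1, Rpl34-ps1 was at -1.17, and without DMSO+AB 2, Rps27l was at -0.10 (-0.03 without the 3 libraries with atrial markers), Rpl22l1 at 0.52, Rpl5 at 0.36 and Rpl7 at 0.41. With all mice, Rpl5 and Rpl7 were the only core genes that differed by more than 0.2.

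Between Hispidulin+AB and Hispidulin+Sham no member passed and none of the genes tested did (0%). In the 25 alternative fits 0 members passed in each, against 0 to 209 of all genes. At an unadjusted p under 0.05 there were 0 members against 7.26% of all genes. The median over the members was 0.05, with 69 of 86 on the higher side (57 after quantile normalization) against 45.1% of all genes. This median was -0.0073 without Hispidulin+Sham 2 and 0.12 without Hispidulin+Sham 1. For 3 members, Rpl3l, Rpl3 and Rpl22, mice did not overlap between the groups, against 20.9% of all genes. The log2 difference was -0.33 for Rpl3l (95% interval -0.66 to 0.0019, limma adjusted p = 0.682) and 0.20 for Rpl3 (-0.11 to 0.51, limma adjusted p = 0.855). Without the 3 libraries with atrial markers, of which Hispidulin+Sham 3 and Hispidulin+AB 3 are in this comparison, the members' median was 0.09, Rpl3l was at -0.33 and Rpl3 at 0.25. The smallest and the largest values among core genes, with all mice, were -0.14 and 0.27.

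The effect of AB was tested for a difference between treatments as an interaction, and none of the members and none of all genes (0%) passed. For Rpl3l the interaction was 0.42 on the log2 scale (95% interval -0.05 to 0.88) and for Rpl3 it was -0.42 (-0.86 to 0.03). Their limma adjusted p was 0.9995, and both intervals included 0 and also values as large as the AB difference itself. A smaller effect of AB on either gene in hispidulin-treated mice was therefore not shown. At an unadjusted p under 0.05 for the interaction there were 0 members against 289 of all genes (2.48%), and 32 of 86 members (37.2%) had an interaction above 0 against 53.4% of all genes.

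In Sham mice hispidulin was compared with DMSO. No member passed, nor did any of the genes tested (0%), 1 member had an unadjusted p under 0.05 against 2.46% of all genes, and no member was without overlap against 5.6% of all genes. The median over the members was 0.05, with 69 on the higher side (59 when FPKM were scaled to equal sums) against 47.6% of all genes, and it was -0.02 without Hispidulin+Sham 1 and 0.10 without Hispidulin+Sham 2. The member of smallest p was Rpl3, with 0.32 (95% interval 0.01 to 0.63, limma adjusted p = 0.99991), and its highest DMSO+Sham mouse, at 159.02 FPKM, was above the lowest Hispidulin+Sham mouse, at 154.38 FPKM. Rpl3l differed by -0.03. Rpl3 differed by 0.06 within series 52, with 2 Hispidulin+Sham mice against 1, and by 0.51 within series 67, with 1 mouse on each side. Rpl3l differed there by 0.21 and -0.07, and these values are given without a test. Without the 3 libraries with atrial markers, of which Hispidulin+Sham 3 is in this comparison, the members' median was 0.05, Rpl3 was at 0.27 and Rpl3l at 0.01.

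Markers of red blood cells moved with both comparisons that hold the Hispidulin+Sham group. The 4 globin genes tested and Alas2, the first enzyme of erythroid haem synthesis, were all higher in Hispidulin+Sham than in DMSO+Sham (median 0.83), 2 of the 5 at an unadjusted p under 0.05, and all 5 were lower in Hispidulin+AB than in Hispidulin+Sham (median -0.77), with none that passed. Their sum was 5028, 3451 and 10251 FPKM in the 3 Hispidulin+Sham mice, against 2688 to 4391 FPKM in DMSO+Sham, 3554 to 4624 FPKM in DMSO+AB and 2237 to 4981 FPKM in Hispidulin+AB. Hispidulin+Sham 3 thus stood above the other 11 mice, and no marker was at 0 in any mouse. Their part in the members' values was not tested.

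Averaged over both treatments, AB against Sham, 3 of the 86 members passed, where 7.39% of all genes did, 3.52% as higher and 3.87% as lower. Rpl3l fell by 0.54 on the log2 scale (SE 0.11, limma adjusted p = 0.0134), Rpl3 rose by 0.41 (SE 0.10, adjusted p = 0.0318) and Rps27l rose by 0.26. An exact permutation within treatments gave two-sided p = 0.005 for Rpl3l and Rpl3, the smallest possible, and 0.015 for Rps27l. It gave 0.01 for Rpl10a and 0.105 for Rpl13a, neither of which passed with limma. This permutation was made on genes found to move in these same mice and adds no independent evidence. The median over the members was 0.07 with 70 on the higher side, 63 to 77 under the other scalings, against a median of -0.03 and 44.2% on the higher side over all genes. The members' median was 0.04 without DMSO+AB 2 or without Hispidulin+AB 1, 0.05 without Hispidulin+Sham 2 and 0.10 without Hispidulin+Sham 1 or DMSO+AB 1. It was 0.06 without the 3 libraries with atrial markers, where none of the 3 members passed, with -0.46 for Rpl3l and 0.36 for Rpl3 (limma adjusted p = 0.119 and 0.162). Rpl3l passed in the other 23 of 24 alternative fits, and Rpl3 in 12 of 24. With 1 mouse left out, Rpl3l passed for each of the 12 mice, and Rpl3 did not pass without DMSO+Sham 1, Hispidulin+Sham 1, Hispidulin+Sham 2, DMSO+AB 2, DMSO+AB 3 or any Hispidulin+AB mouse (limma adjusted p 0.0512 to 0.0868).

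The other paralogs were set against their parent genes in the same way, as a description. Rps27l was at 0.158 ± 0.0224 of the FPKM of Rps27 in DMSO+Sham, 0.158 ± 0.018 in Hispidulin+Sham, against 0.222 ± 0.013 in DMSO+AB and 0.180 ± 0.0319 with hispidulin after AB (SD, n = 3). DMSO+AB was above all Sham mice, whereas Hispidulin+AB was spread over both ranges. Rpl22l1, a paralog of the RNA-binding protein Rpl22, was at 0.578 ± 0.135 of Rpl22 in DMSO+Sham and 0.437 ± 0.0832 in DMSO+AB, with overlap. Rpl36al stood at 0.575 to 0.700 of Rpl36a and Rpl7l1, which acts in the assembly of the large subunit, at 0.0447 to 0.0781 of Rpl7 in all 12 mice, and AB and Sham mice overlapped for each. The retrocopies Rpl37rt, Rpl31-ps12 and Rpl34-ps1 were at 0.289 to 0.641, 0.140 to 0.304 and 0.0016 to 0.0256 of their parents, again with overlap, and reads that a retrocopy shares with its parent make these values uncertain.

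**Figure D3:**
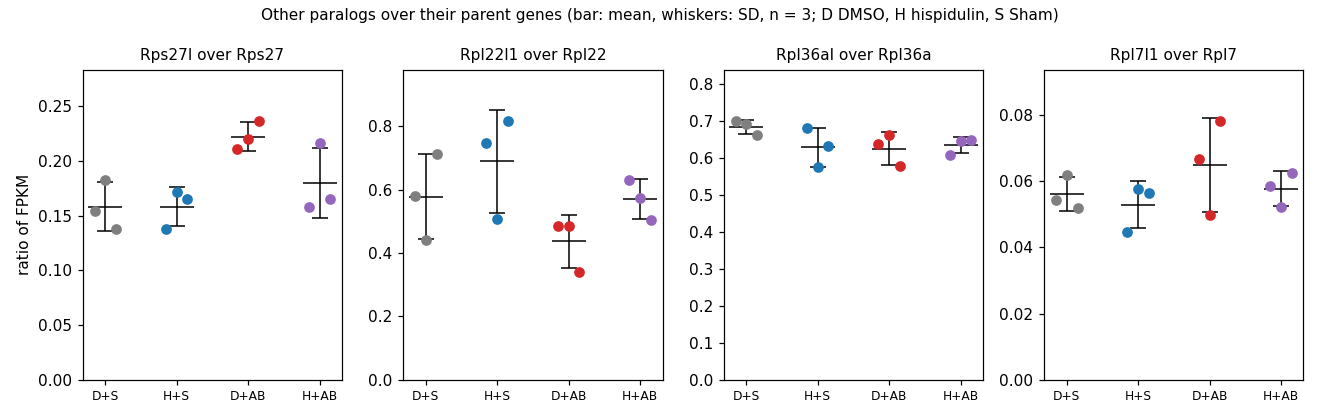
Ratio of FPKM of 4 paralogs to their parent genes in each of the 12 mice by group (D DMSO, H hispidulin, S Sham). Points are mice, bars the mean and whiskers the SD (n = 3). Only for Rps27l over Rps27 does DMSO+AB, with a mean of 0.222, lie wholly above DMSO+Sham, with a mean of 0.158, and for Rpl36al over Rpl36a it lies just below DMSO+Sham, with means of 0.626 and 0.685.

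The core genes varied together from mouse to mouse within groups. Each gene's log2(FPKM + 1) was set against its mean over the 12 mice, and the median over the 86 members was taken in each mouse. It was -0.10, -0.03 and -0.04 in DMSO+Sham and 0.12, -0.12 and -0.03 in Hispidulin+Sham. After AB it was -0.09, 0.17 and 0.05 in DMSO+AB and 0.12, 0.06 and -0.06 in Hispidulin+AB. In DMSO+AB 2, 84 of 86 members were above their own mean, in Hispidulin+AB 1 83 and in Hispidulin+Sham 1 78, whereas only 6 were in Hispidulin+Sham 2 and in DMSO+AB 1. A high and a low mouse thus occurred within the same group, and the median over all genes moved by no more than 0.05 in any mouse.

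**Figure D4:**
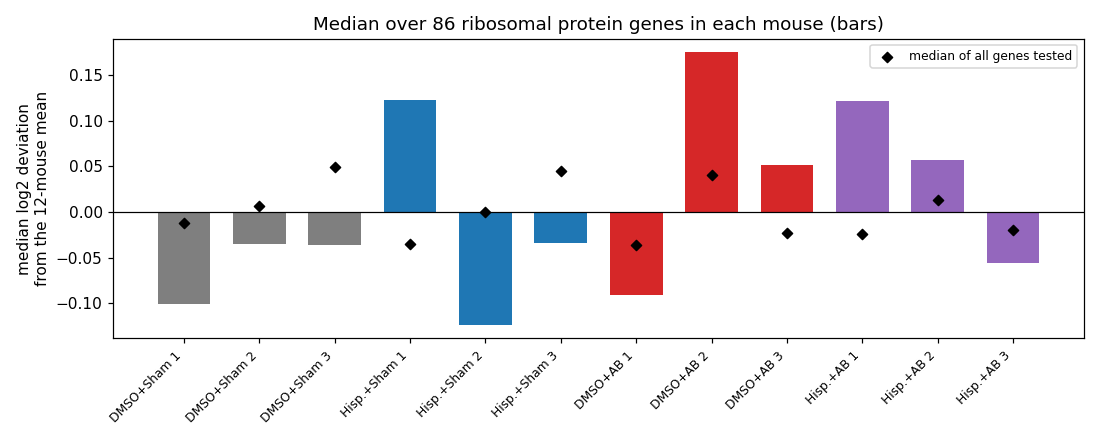
Median log2 deviation from the 12-mouse mean over the 86 tested members in each mouse (bars, coloured by group) and over all genes tested (diamonds). Bars run from -0.12 in Hispidulin+Sham 2 to 0.17 in DMSO+AB 2, and Hispidulin+Sham, DMSO+AB and Hispidulin+AB each hold bars on both sides of 0.

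After group means were removed, the pairwise correlations among the 77 core genes had a median of 0.687 over 12 mice, and 97.8% of 2926 pairs were above 0. This describes 12 libraries, whose genes share FPKM scaling within each library and an unknown depth, and has no test. The within-group SD was 0.136 on the log2 scale for the median core gene, 0.178 for the median of all genes and 0.153 for other genes of at least 50 FPKM. The gene that followed the others least was Rps6, with a correlation of 0.241 to the mean of the other core genes, followed by Rps2 with 0.434. Rps6 lay between 8.74 and 16.46 FPKM and its highest value was in Hispidulin+Sham 3.

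DMSO+AB 3 departed from this common movement. There the deviations of the 77 core genes had an SD of 0.203 on the log2 scale, against 0.0514 to 0.12 in the other 11 mice, and 8 core genes were more than 0.3 below their own mean although the median was above it. The lowest was Rpl7, an RNA-binding protein of the large subunit, with 269.6 FPKM against 375.65 to 479.32 FPKM in the other mice. Rpl5, which binds the 5S rRNA, had 232.57 FPKM there against 312.77 to 387.36, Rps24 had 442.71 against 586.28 to 768.13, and Rps3a1 350.88 against 463.18 to 562.82. Genes that are no members stood apart there too: 20.8% of the 11578 tested were more than 0.3 below their mean, against 1.81% to 12.1% in the other mice. Among the 1380 of them with a mean of at least 50 FPKM it was 15.4%. DMSO+Sham 3 was higher there, with 16.4%, and the remaining mice had 0.362% to 10.6%. Npm1, a nucleolar chaperone, was at 47.3 FPKM against 81.56 to 121.63 FPKM, and the nucleolar protein Ncl at 19.93 against 28.26 to 44.42 FPKM. In the same mouse Rpl18, at 0.3, was the highest of the core genes relative to its mean. These genes were picked after their values were seen. Without this mouse, the difference of Rpl7 between Hispidulin+AB and DMSO+AB was -0.01 in place of 0.23.

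**Figure D5:**
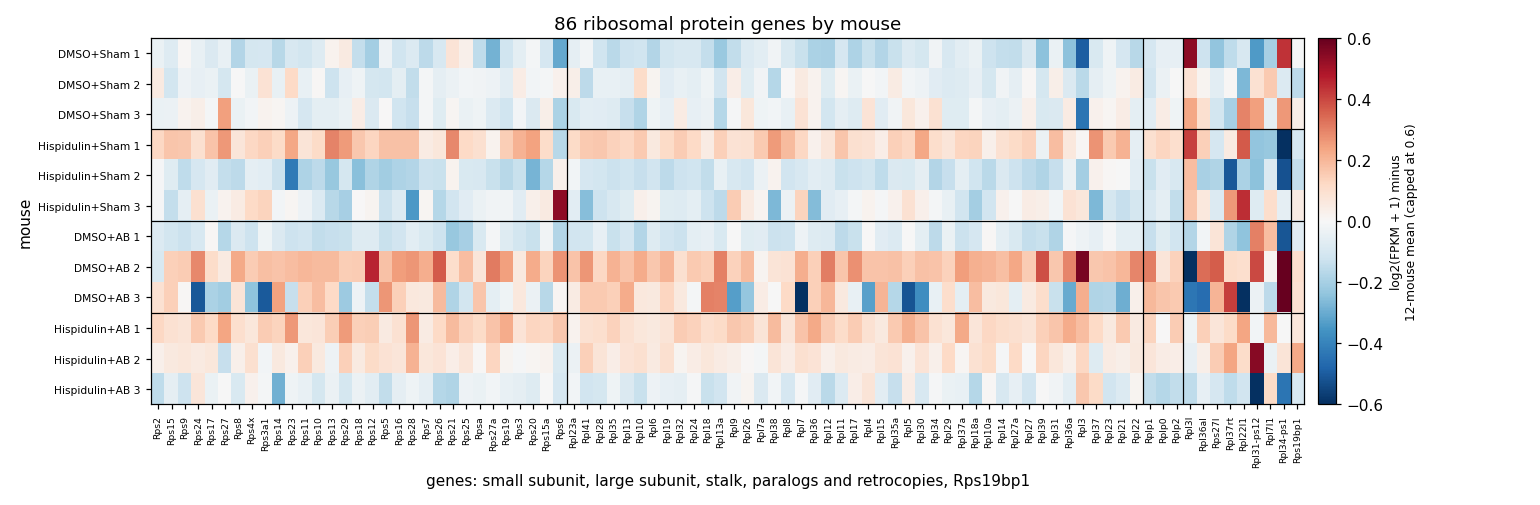
Log2(FPKM + 1) minus the 12-mouse mean for the 86 tested members (columns, by class and by mean FPKM within a class) in each mouse (rows, by group), capped at 0.6 on either side. Most rows are of 1 colour across the core genes, DMSO+AB 2 high and Hispidulin+Sham 2 low, while DMSO+AB 3 holds both colours, and in DMSO+AB 2 the Rpl3 column is high and the Rpl3l column low.

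Genes that work beside the ribosome were taken from lists of factors. The ribosomal genes Fau and Rack1, whose products belong to the small subunit but whose symbols are outside the rule, differed by 0.17 and 0.14 between DMSO+AB and DMSO+Sham, and neither passed. Of 16 elongation factors and other TOP mRNAs 0 passed (median 0.03). Eef1a1, the factor that delivers tRNA, was at 541.58, 615.29 and 654.62 FPKM in DMSO+Sham and 629.33, 928.22 and 729.4 FPKM in DMSO+AB. These overlapped, with a log2 difference of 0.32 (limma adjusted p = 0.201). Its muscle form Eef1a2 differed by -0.05 and the translocation factor Eef2 by -0.09.

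No gene passed between these groups among 23 initiation factors (median 0.02) or 13 genes of mTOR and S6 kinase signalling (median 0.01), in which Rps6kb1, the kinase of Rps6, differed by -0.02 and Eif4ebp1, the repressor of cap-dependent initiation, by 0.13. Of 36 ribosome biogenesis genes only Rrp12, needed to export the subunits from the nucleus, passed, with a log2 rise of 0.76 (limma adjusted p = 0.0433), where 5.21% of all genes did. It was at 7.05, 5.45 and 10.23 FPKM in DMSO+Sham and 13.64, 11.5 and 14.58 FPKM in DMSO+AB, without overlap. Rrp12 passed in 9 of 25 alternative fits (limma adjusted p 0.0135 to 0.207), and in the fits with 1 mouse left out it passed only without DMSO+Sham 3 or Hispidulin+AB 2. Averaged over treatments, Rrp12 rose by 0.67 (limma adjusted p = 0.0149), and Polr1a, the largest subunit of RNA polymerase I, fell by 0.34 (adjusted p = 0.0341). They passed in 22 and 11 of 24 alternative fits, and Polr1a did not with the replicate number as a block (adjusted p = 0.0557) or without DMSO+Sham 1, Hispidulin+Sham 1, Hispidulin+Sham 2, DMSO+AB 2 or any Hispidulin+AB mouse. Without the 3 libraries with atrial markers neither gene passed, with limma adjusted p of 0.174 for Rrp12 between DMSO+AB and DMSO+Sham, and of 0.127 for Rrp12 and 0.147 for Polr1a over both treatments. Between DMSO+AB and DMSO+Sham the median of the biogenesis list was -0.01, with 17 of 36 on the higher side. Between Hispidulin+AB and Hispidulin+Sham it was 0.11 with 29 of 36 on the higher side, against 45.1% of all genes, and 4 (Myc, Rrp12, Nhp2 and Bop1) had an unadjusted p under 0.05, against 7.26% of all genes, but did not pass. Between Hispidulin+Sham and DMSO+Sham the median was -0.11 with 8 of 36 on the higher side, against 47.6% of all genes, and these comparisons share the Hispidulin+Sham mice. For Hispidulin+AB against DMSO+AB none of these lists held a gene that passed, and their medians lay between -0.02 and 0.03.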

How the data were processed

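RNA of left ventricular muscle from 12 mice, each a separate sample, was sequenced by the authors from polyadenylated RNA on a BGISEQ-500 (single-end, 50 bases), and the authors deposited FPKM per NCBI Gene identifier, rounded to 0.01. The submitters' processing notes name HISAT2 2.0.4, Bowtie2 2.2.5, RSEM 1.2.12 and DESeq2 1.4.5; the genome build is not given in the sources used here. Ratios of low values lay within 0.1 of whole numbers in 18.7% of 19092 cases (20% if evenly spread), so reads were not recovered, depth is unknown and no counting error can be given. Symbols came from the RefSeq gene table (17947 of 18079 genes). One symbol that meets the rule, Rps27rt, was not analysed here.

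Analysis used R 4.3.3, limma 3.58.1, Python 3.11.15, pandas 2.3.3 and scipy 1.17.1. limma was run on log2(FPKM + 1) with 1 mean per group, eBayes with a trend, two-sided (8 residual degrees of freedom), and was tested on simulated data. Fold changes on this scale understate those of low genes. Groups came from the sample labels. Members and gene lists were chosen with earlier results of these data known. Genes were named if they passed in any comparison, had the 6 smallest p in DMSO+AB against DMSO+Sham or Hispidulin+AB against DMSO+AB, formed a paralog pair, or were the stalk, common reference, highest or lowest genes; of the other lists, those that passed and 8 fixed genes, of which 1 is not reported here. Some genes that the rule admits are left unnamed, and some outside it were named after their values were seen.

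Same-numbered mice are different animals. Correlations of their residuals were 0.147, 0.197 and 0.228 between the hispidulin groups, 0.126, 0.33 and 0.232 between the Sham groups and -0.198 to 0.3 otherwise. With the replicate block, 17 of all genes and 0 members passed between the hispidulin groups. Alternatives were other added constants, filters, scalings, library weights, no trend, only the libraries compared, the block, the animal number series, and each mouse left out.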

Additional observations from a re-analysis of the deposited data

How the results depend on the processing

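Between DMSO+AB and DMSO+Sham, Rpl3l stayed negative and Rpl3 positive in all 25 alternatives, but the number of members that passed ranged from 0 to 4. The number of all genes that passed ranged from 11 to 1423, against 608 in the main fit. Without a filter on low values Rpl3 did not pass (0.62, limma adjusted p = 0.0557), and 1 member, Rpl3l, did. With only the libraries compared 0 did (Rpl3l -0.75, adjusted p = 0.163; Rpl3 0.62, 0.208), with a covariate for the series of the animal number 0 (Rpl3l -0.62, 0.0862; Rpl3 0.55, 0.128), and without the 3 libraries with atrial markers, an alternative chosen after seeing the data, 0 (Rpl3l -0.59, 0.171; Rpl3 0.46, 0.205). With 1 mouse left out, 0 to 4 members and 91 to 1050 of all genes passed, Rpl3l ranged from -0.89 to -0.59 and Rpl3 from 0.46 to 0.76.

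For AB against Sham over both treatments, 1 member, Rpl3l, passed without a filter, where Rpl3 was at 0.41 (limma adjusted p = 0.0542). With the series covariate Rpl3l was again the only member that passed (adjusted p = 0.0448), and Rpl3 was at 0.38 (0.0986). With library weights 7 members passed, and without the atrial-marker libraries 0 (Rpl3l at -0.46, 0.119, and Rpl3 at 0.36, 0.162). With 1 mouse left out 1 to 4 members passed (Rpl3 0.33 to 0.48), against 373 to 1210 of all genes. Over all 24 alternatives 73 to 2535 of all genes passed, against 862 in the main fit. After quantile normalization Rpl3 was at 0.36 (0.0529). No member passed in the other comparisons or for the interaction under any alternative. Of all genes, up to 209 passed between the hispidulin groups, 20 between Hispidulin+AB and DMSO+AB, 3 for the interaction and 0 between the Sham groups.

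Values near 0 changed sign. With 1 mouse left out, the members' median was -0.0073 to 0.12 between the hispidulin groups, -0.024 to 0.10 between the Sham groups and -0.069 to 0.067 between Hispidulin+AB and DMSO+AB, and for AB against Sham, without a change of sign, 0.039 to 0.10. Between Hispidulin+Sham and DMSO+Sham, Rpl3l was 0.096 with the series covariate, 0.012 without the atrial-marker libraries and -0.13 to 0.093 with 1 mouse left out. Between Hispidulin+AB and DMSO+AB, Rpl3 was 0.061 without the atrial-marker libraries and -0.24 to 0.063 with 1 mouse left out, Rpl7 was -0.0077 to 0.41, and without the atrial-marker libraries the members' median was 0.12 and the ratio of their summed FPKM 1.09. The replicate block changed no member's call other than that of Rps27l for AB against Sham (adjusted p = 0.0594), and ended that of Polr1a, not a member (0.0557). The causes were not tested. No scaling moved the median of all genes by over 0.1. No value met the rules for a closer look, and groups of 3 are too small for the test of outlying mice. Depth is unknown and each mean rests on 3 mice, so differences of the core genes under about 18.7% lie within a typical 95% interval.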
